A study of Homo sapiens with 27 samples.

Results

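SUM159 is an established triple negative breast cancer cell line with mesenchymal features. The 12 libraries described here, of 27 in the series, were all made from it and all belong to the first of its sequencing runs. In 6 libraries ZEB1 was targeted with dCas9-KRAB, a Cas9 that cannot cut DNA fused to a Krüppel associated box repressor domain: 3 libraries carried gRNA 4 alone and 3 carried the pool of 4 gRNAs, called All gRNA. The other 6 libraries were the controls, 3 from untransduced wild type cells and 3 from cells with the dCas9-KRAB vector and no gRNA, called No gRNA. All cells shared a medium with insulin and hydrocortisone. All transduced groups received lentivirus from HEK293T packaging cells and puromycin selection, and the wild type cells did not. The question was which genes differed between targeted and control cells whichever control was chosen, so a gene was called separated when all 6 targeted values lay on one side of all 6 control values. Of 57165 genes in the deposited table, 15147 had enough counts to be tested, and 1458 of them were separated, a share of 9.63%. The replicates are described as separate experiments or clones of each transduction, so p-values here measure the spread between such libraries of one cell line.

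ZEB1 is a zinc finger transcription factor that drives the epithelial to mesenchymal transition. It binds E-box sequences in the promoters of epithelial genes, among them cadherin and junction genes, and recruits corepressors to them. Claudin-low breast cancer lines of the SUM159 kind are known for high ZEB1, high vimentin and little or no claudin or E-cadherin. Markers had been fixed as a check of the labels, and most but not all of them stood as the labels would have it. Among estimated counts, ESR1 (the estrogen receptor) was at or below 2.7 in every library, and PGR (the progesterone receptor) and CLDN3 were at 0 in all. CLDN7 had at most 3.1 counts and CLDN4 at most 14.3. CLDN1, a claudin outside the fixed markers, was well expressed, as given below. VIM, which encodes vimentin, lay between 3084 and 4212 CPM, where CPM is the usual count per 1e+06 counts of a library, scaled with TMM (the trimmed mean of M values). ERBB2, fixed as a marker to be low, was expressed in every library, between 37.1 and 60.4 CPM. Library totals ran from 17114434 to 21473757 estimated counts. Each gene had 3 values per group, and the counting error of low genes is large: 15 of the separated and called genes described below had no library above 3 counts in at least one group.

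Stretches before the starts of ZEB1 and selected members are given here because ZEB1 is known to bind the E-box CAGGTG. This reads CACCTG on the opposite strand. dCas9-KRAB was directed to the ZEB1 promoter, but the guide sequences listed by the paper do not occur in the stretch printed for ZEB1. A single RefSeq start per gene was used, the entry at the lowest position. Each sequence is the 250 bases before the RefSeq start, 5′ to 3′ on the gene's own strand, in the GRCh38.p14 build, with CAGGTG or CACCTG in capitals. ZEB1, on the plus strand at chr10:31318167-31318416, held the motif once. SPINT1, at chr15:40843798-40844047 on the plus strand and the gene with the largest increase against both controls pooled, held no match. DSP, at chr6:7541421-7541670 on the plus strand, held 2 matches, and KLC3, at chr19:45340500-45340749 on the plus strand, also held 2. CDS1, at chr4:84582877-84583126 on the plus strand, held 1. SPARC, at chr5:151686916-151687165 on the minus strand and one of the genes that fell, held none.
ZEB1: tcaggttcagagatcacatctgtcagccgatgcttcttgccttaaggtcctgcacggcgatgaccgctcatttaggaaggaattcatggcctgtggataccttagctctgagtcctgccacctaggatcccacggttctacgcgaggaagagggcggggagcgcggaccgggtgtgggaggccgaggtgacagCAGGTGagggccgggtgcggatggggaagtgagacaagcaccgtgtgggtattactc
SPINT1: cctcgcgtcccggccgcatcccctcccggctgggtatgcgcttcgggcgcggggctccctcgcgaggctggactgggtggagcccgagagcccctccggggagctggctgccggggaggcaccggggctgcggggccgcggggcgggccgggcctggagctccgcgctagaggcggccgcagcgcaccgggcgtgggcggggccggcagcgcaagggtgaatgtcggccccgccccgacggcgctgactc
DSP: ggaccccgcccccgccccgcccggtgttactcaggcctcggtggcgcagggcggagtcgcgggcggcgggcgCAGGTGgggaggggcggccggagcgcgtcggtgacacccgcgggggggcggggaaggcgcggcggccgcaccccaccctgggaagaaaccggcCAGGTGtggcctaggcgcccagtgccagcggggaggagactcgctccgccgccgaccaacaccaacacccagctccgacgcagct
KLC3: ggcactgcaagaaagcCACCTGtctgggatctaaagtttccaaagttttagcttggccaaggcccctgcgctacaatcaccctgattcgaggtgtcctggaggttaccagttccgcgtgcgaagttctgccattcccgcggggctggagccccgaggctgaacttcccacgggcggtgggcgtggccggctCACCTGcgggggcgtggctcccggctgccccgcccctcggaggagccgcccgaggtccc
CDS1: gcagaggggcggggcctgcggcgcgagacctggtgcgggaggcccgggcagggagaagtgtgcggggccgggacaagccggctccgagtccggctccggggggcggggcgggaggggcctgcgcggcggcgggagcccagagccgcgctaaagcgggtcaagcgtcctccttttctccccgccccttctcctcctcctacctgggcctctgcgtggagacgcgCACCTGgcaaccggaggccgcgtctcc
SPARC: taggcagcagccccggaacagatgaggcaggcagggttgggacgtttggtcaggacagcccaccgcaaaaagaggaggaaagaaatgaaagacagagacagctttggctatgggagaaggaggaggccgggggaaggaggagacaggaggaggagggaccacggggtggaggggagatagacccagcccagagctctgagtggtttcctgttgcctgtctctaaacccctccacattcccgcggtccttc
Of all genes tested, 10923 of 15147 could be matched by symbol to a RefSeq promoter, and 15.4% of these held the motif in the 250 bases. Of the genes separated above the controls and called, 64 of 108 could be matched and 23 held it. Of those separated below and called, 26 of 31 could be matched and 7 held it. The comparison of shares is void, because only 59.3% of the genes above the controls had a sequence. A match is a description of the letters and not a binding site.

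ZEB1 itself was the gene with the largest fall against both controls pooled. It stood at 82.1, 73.8 and 76.8 CPM in the wild type libraries and at 68.7, 74.8 and 70.8 CPM with No gRNA. With gRNA 4 it stood at 4.40, 3.12 and 2.47 CPM, and with All gRNA at 0.786, 0.363 and 0.991 CPM. The control types overlapped each other and no targeted library came near them. The log2 fold change of the targeted libraries against both controls was -5.63 ± 0.19 (SE, n = 6 against 6; adjusted p = 2.82e-08, limma TREAT), against No gRNA it was -5.57 and against wild type -5.69. A two-sided exact permutation test over the 12 libraries (924 arrangements) gave p = 0.00216, the smallest it can give. Every separated gene gives that value, so the permutation test adds no support beyond the separation itself. ZEB1-AS1, a long non-coding RNA on the opposite strand, fell as well. It stood at 8.41, 9.27 and 10.2 CPM in wild type and 10.3, 10.7 and 10.0 CPM with No gRNA. It stood at 5.09, 8.25 and 5.00 CPM with gRNA 4 and at 0, 0.472 and 0.409 CPM with All gRNA. The log2 fold change was -3.23 ± 0.39 (SE; adjusted p = 8.42e-03), and the 2 guide groups did not overlap. The RefSeq starts used here, a single one per gene, lie 678 bases apart with transcription toward each other. Other starts of these genes could give another layout. The strandedness of the counting was not given in the sources used here, so reads of these genes could not be told apart where they overlap.

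Of the 1458 separated genes, 784 lay above the controls (5.18% of genes tested) and 674 below (4.45%). A gene was called when limma's TREAT test found an absolute log2 fold change beyond 1 at an adjusted p under 0.05. Against both controls pooled, 154 genes were called (1.02%), 121 higher (0.799%) and 33 lower (0.218%), and 139 of them were also separated (0.918%), 108 above (0.713%) and 31 below (0.205%). Of the 139 genes, 127 are annotated as protein coding and 9 as long non-coding RNA. The comparisons with each control share the targeted libraries, so their counts are given side by side. Against No gRNA 70 genes were called (0.462%), 51 higher (0.337%) and 19 lower (0.125%). Against wild type 425 were called (2.81%), 287 higher (1.89%) and 138 lower (0.911%). The No gRNA and wild type controls themselves differed at 231 genes (1.53%), 157 higher (1.04%) and 74 lower (0.489%) with the vector, and at 147 or 150 genes without wild type library 1 or 2. A set of 47 genes, 39 higher (0.257%) and 8 lower (0.0528%), was separated, called against both controls pooled and called against each control taken alone (0.31% of genes tested). Of the other separated and called genes, 81 were called against wild type but not against No gRNA, 6 against No gRNA but not wild type and 5 against neither alone. When the 3 wild type libraries of the later sequencing run were added to the wild type group, 15 of the 47 genes were called against each control, the group then spanning both runs. Leaving out 1 library at a time removed the call against at least one control for KLC3 in all 12 fits, GJB5 in 11, AQP9 in 10, PXYLP1 in 9, TSPAN18 and SLC35F3 in 8, CCDC80 in 5 and ZEB1-AS1 in 4. It was also removed for SPINT2 and LAMB3 in 3 fits and for CSF3 and WNT7B in 2. Further genes of the 47 lost it as well, and 28 kept it in all 12 fits.

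**Figure D1:**
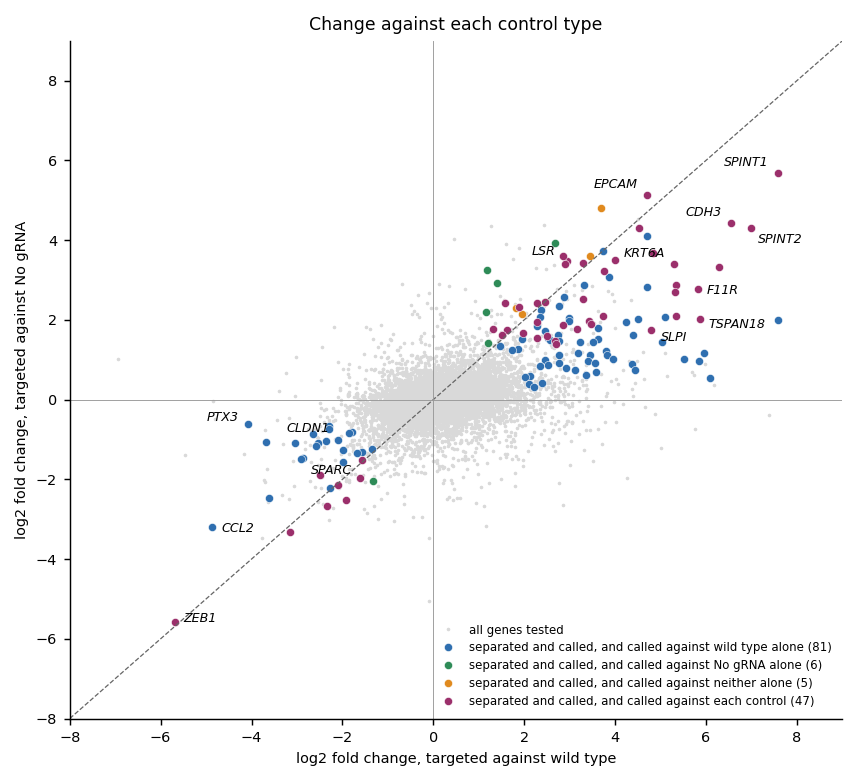
Log2 fold change of the 6 targeted SUM159 libraries against the 3 wild type libraries (horizontal) and against the 3 No gRNA libraries (vertical), one point per gene; grey points are all genes tested and coloured points the 139 separated and called genes by the controls against which they were called. ZEB1 lies on the dashed line of equal change, while most genes called against wild type alone lie between that line and the horizontal axis.

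Surface protease inhibitors and cell adhesion molecules were among the largest increases. SPINT1, a membrane-bound inhibitor of serine proteases such as matriptase, stood at 0.0287 to 0.0760 CPM in wild type and 0.170 to 0.385 CPM with No gRNA. It stood at 12.1, 15.2 and 16.2 CPM with gRNA 4 and 15.01, 11.8 and 16.7 CPM with All gRNA. Wild type libraries held at most 3 counts of it, so it was at least 97.6-fold higher than that floor of 3 counts per library, and against No gRNA the log2 fold change was 5.67. Its relative SPINT2 was at or below 0.480 CPM in all 6 controls and between 5.504 and 12.2 CPM in the targeted libraries, with a log2 fold change of 5.64 ± 0.50 (adjusted p = 1.60e-04). CDH3, which encodes P-cadherin, a calcium-dependent adhesion molecule of basal epithelium, stood at 0.388 to 0.614 CPM in wild type, 2.52, 3.43 and 1.33 CPM with No gRNA, 56.2, 57.03 and 66.4 CPM with gRNA 4 and 37.5, 42.9 and 40.1 CPM with All gRNA. The lowest targeted library of CDH3 lay far above the highest control, and the log2 fold change was 5.49 ± 0.23 (adjusted p = 1.80e-07). EPCAM, an epithelial cell adhesion molecule, was at 0 in 5 of 6 controls and between 0.784 and 1.33 CPM in the targeted libraries. That was at least 6.47-fold over the floor in wild type and 5.54-fold in No gRNA, at a low level in targeted cells as well. CDH1, which encodes E-cadherin, did not have enough counts to be tested. Its estimated counts were at most 0.5 in the controls, 4.3, 0.9 and 5.6 with gRNA 4, and 90.5, 4.8 and 4.6 with All gRNA, so 1 library held nearly all of them.

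F11R, the junctional adhesion molecule A, stood at 0.282 to 0.855 CPM in wild type, 5.26, 4.17 and 4.51 CPM with No gRNA and between 28.8 and 34.8 CPM in the targeted libraries. Its log2 fold change was 2.78 against No gRNA and 5.82 against wild type, and the difference between those, the No gRNA against wild type change of 3.05, itself passed the test. LSR, which places tricellulin at the corners where 3 cells meet, did not show this step. It stood at 6.62, 9.72 and 7.17 CPM in wild type, 2.73, 7.22 and 8.24 CPM with No gRNA and 52.0 to 69.7 CPM in targeted cells, a log2 fold change of 3.14 ± 0.19 (adjusted p = 3.75e-05). Of 11 tight junction and junctional adhesion genes tested, 5 were separated above (F11R, LSR, TJP3, CLDN12 and CXADR) and CLDN1 below, and 2 were called higher and 1 lower. The median log2 fold change of this list was 0.56, against 0.00 over all genes tested. Over all genes tested, 5.18% were separated above and 4.45% below, and 0.799% were called higher and 0.218% lower. The gene lists here and below were chosen with earlier results known, so their counts are descriptions. CXADR, the coxsackievirus and adenovirus receptor, lay between 3.66 and 9.45 CPM in controls and 15.9 and 42.7 CPM in targeted cells but did not pass the test.

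Among 21 genes of adherens junctions, desmosomes and gap junctions, 9 were separated above and none below, and 4 were called higher, CDH3, DSP and GJB5 among them. The shares over all genes tested were 5.18% above, 4.45% below and 0.799% called higher. The median log2 fold change of the list was 0.22 against both controls, 0.52 against No gRNA and 0.62 against wild type. DSP encodes desmoplakin, which ties desmosomes to keratin filaments. It stood at 38.2, 35.6 and 36.3 CPM in wild type, 60.7, 62.6 and 59.8 CPM with No gRNA, 169, 175 and 178 CPM with gRNA 4 and 200, 171 and 174 CPM with All gRNA, a log2 fold change of 1.91 ± 0.05 (adjusted p = 4.15e-07). The groups formed 3 levels, with No gRNA above wild type and both guide groups together above it. The other desmosome genes that were separated, JUP (plakoglobin) and PKP3 (plakophilin 3), had log2 fold changes of 0.78 and 1.14 and were not called. The gap junction gene GJB5 lay between 0.83 and 1.49 CPM in the controls and between 4.86 and 5.29 CPM in targeted libraries, with a log2 fold change of 2.12. GJB2, a further connexin gene, was separated with a log2 fold change of 1.49 and was not called.

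Among 14 hemidesmosome and basement membrane genes, 5 were separated above (5.18% of all genes) and COL17A1 and LAMB3 were called higher (0.799% of all genes). The median log2 fold change of the list was 0.42. COL17A1, the collagen of hemidesmosomes that anchors basal cells to the basement membrane, stood at 237, 209 and 224 CPM in wild type, 567, 538 and 542 CPM with No gRNA and between 1401 and 1518 CPM in the targeted libraries. Its log2 fold change was 2.06 ± 0.03 (adjusted p = 3.39e-09). LAMB3, a chain of laminin 332 in the same structure, moved otherwise between the controls. It stood at 144, 137 and 145 CPM in wild type, at 102, 112 and 97.7 CPM with No gRNA and between 289 and 427 CPM in targeted cells. Its log2 fold change was therefore larger against No gRNA (1.76) than against wild type (1.31). ITGB4, the integrin partner of both, was separated at 421 to 452 CPM with No gRNA and 621 to 745 CPM in targeted cells and was called against wild type alone.

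**Figure D2:**
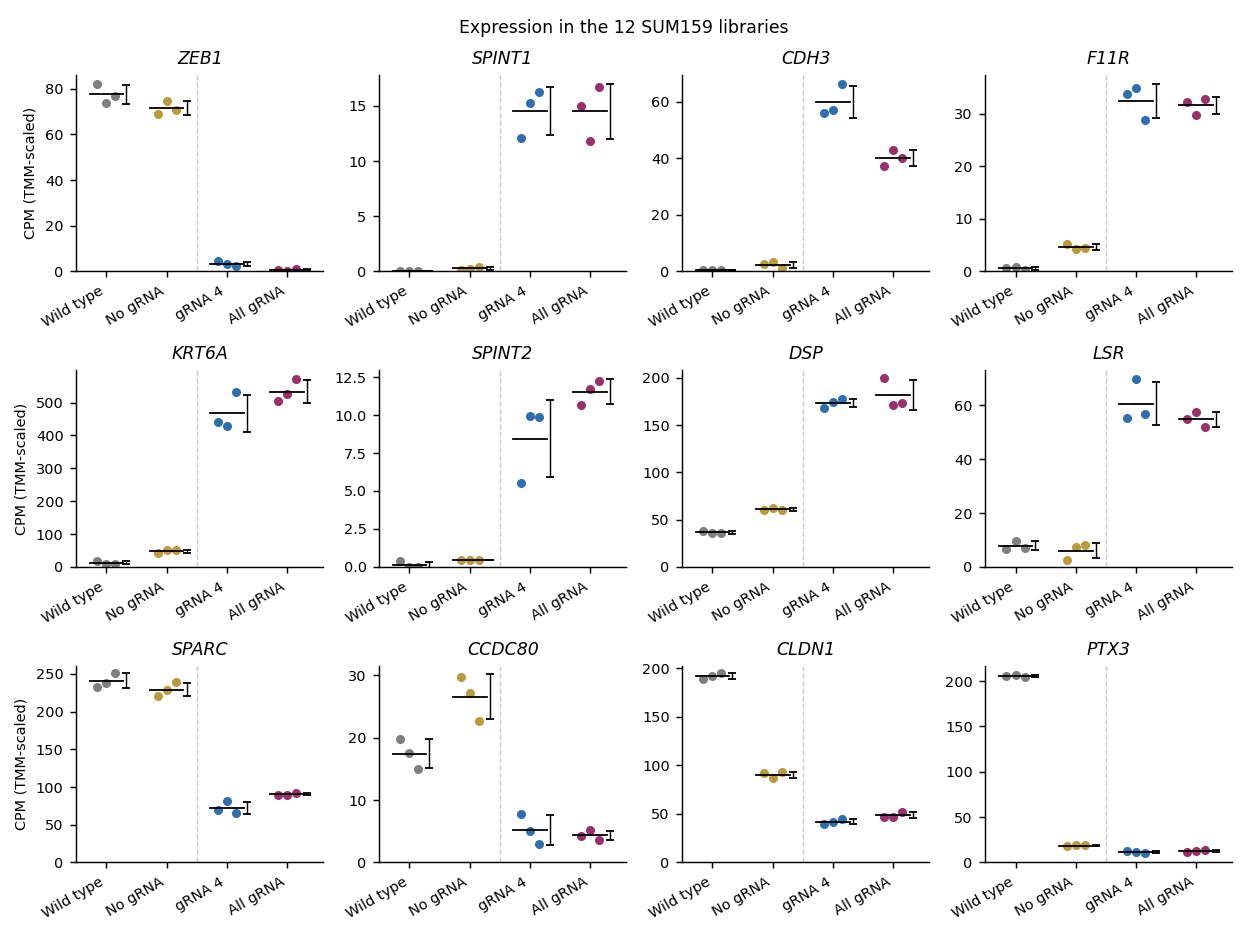
CPM of 12 genes in each of the 12 SUM159 libraries, on linear axes that start at 0; points are libraries, horizontal lines group means and bars ± 1 SD over 3 libraries, with controls left of the dashed line. In every panel all 6 targeted libraries lie on one side of all 6 controls; for PTX3 and CLDN1 most or much of the fall from wild type is already seen with No gRNA.

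Of 24 epithelial surface and apical genes tested, 10 were separated above and none below, against 5.18% and 4.45% of all genes. Called higher were 7 (0.799% of all genes): EPCAM, SPINT1, SPINT2, MAP7, CDS1, PATJ and KRT17, the last of which was not separated. The median log2 fold change was 0.71, and setting members at the floor to their bounds did not change any list median. MAP7, a microtubule-associated protein of epithelial cells, was at or below 1.25 CPM in all controls and between 13.9 and 16.7 CPM in targeted libraries, a log2 fold change of 4.25 ± 0.20 (adjusted p = 1.04e-06). CDS1, a CDP-diacylglycerol synthase, lay between 6.81 and 9.02 CPM in the controls and 24.1 and 28.02 CPM in targeted cells, and the controls overlapped. Its log2 fold change was 1.75 against No gRNA and 1.63 against wild type. KLC3, a kinesin light chain, was at or below 0.352 CPM in controls and between 1.12 and 2.41 CPM in targeted cells.

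Of 14 epithelial transcription and splicing regulators, 2 were separated above and called, EHF among them, and KLF4 and TFAP2C were separated below with log2 fold changes of -0.53 and -0.50 that were not called. The list median was 0.41. For all genes tested, 0.713% were separated above and called, and 4.45% were separated below. EHF, an ETS factor of epithelial cells, lay between 0.530 and 1.43 CPM in the controls, at 10.6, 9.81 and 10.7 CPM with gRNA 4 and at 7.08, 5.94 and 8.07 CPM with All gRNA. The log2 fold change was 3.36 ± 0.21 (adjusted p = 4.23e-05). The wild type and No gRNA libraries overlapped. MIR205HG, the host transcript of an epithelial microRNA, lay between 14.0 and 16.8 CPM in controls and 37.9 and 43.9 CPM in targeted cells, with a log2 fold change of 1.40 ± 0.06 that passed the test against both controls and against wild type. Of 17 transcription factors of the mesenchymal programme and ZEB1 corepressors, only ZEB1 was called against both controls pooled (0.218% of all genes called lower). CBX5 (heterochromatin protein 1 alpha) was separated below with a log2 fold change of -0.38. FOXC2 was called lower against wild type, at -1.36, and No gRNA was called lower than wild type, at -1.47. Over the fits that left out 1 library, SNAI1 changed by 0.80 to 0.96, SNAI2 by -0.34 to -0.30 and ZEB2 by -0.54 to -0.25, and these were not called.

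Further genes of the 47 are described singly. KRT6A, a keratin of activated and suprabasal keratinocytes, stood at 18.6, 10.4 and 10.1 CPM in wild type, 41.9, 51.1 and 50.0 CPM with No gRNA, 441, 429 and 531 CPM with gRNA 4 and 503, 525 and 571 CPM with All gRNA. The log2 fold change was 4.35 ± 0.12 (adjusted p = 1.37e-08, limma TREAT). On the log2 scale, the step from wild type to No gRNA made up 36.1% of the change from wild type to targeted cells, a share that is smaller in CPM. KRT6A shares most of its sequence with neighbouring keratin 6 genes, so its counts may be divided among them. PI3 and SLPI encode elafin and the secretory leukocyte protease inhibitor, both inhibitors of neutrophil elastase. PI3 stood at 0.830 to 1.27 CPM in wild type, 9.14 to 10.6 CPM with No gRNA, 58.4 to 66.3 CPM with gRNA 4 and 28.1 to 29.2 CPM with All gRNA. SLPI stood at 1.38 to 2.10, 13.3 to 15.5, 56.0 to 61.8 and 38.9 to 43.2 CPM in the same order. Both rose in steps, and in both the 2 guide groups did not overlap. TFPI2, an inhibitor of tissue factor and plasmin, went from 45.8 to 50.5 CPM in wild type through 116 to 137 CPM with No gRNA to 405 to 452 CPM in targeted cells. S100A9, a calcium-binding subunit of calprotectin, was under 1.00 CPM in all controls and between 3.70 and 8.61 CPM in targeted cells.

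Of the remaining genes of the 47 that rose, AQP3 (a glycerol and water channel of epithelia), WNT7B (a Wnt ligand) and BCL2A1 (an anti-apoptotic relative of BCL2) illustrate the range. AQP3 lay between 0.352 and 0.514 CPM in wild type, 2.03 and 3.08 CPM with No gRNA, 25.4 and 29.4 CPM with gRNA 4 and 11.3 and 12.4 CPM with All gRNA. WNT7B lay between 0.642 and 1.66 CPM in the controls and 7.47 and 12.04 CPM in targeted cells. BCL2A1 lay below 0.5 CPM in the controls, between 5.90 and 7.62 CPM with gRNA 4 and between 2.62 and 3.54 CPM with All gRNA. TREM1, a receptor best known from myeloid cells, went from 7.93 to 9.76 CPM in wild type and 19.996 to 25.5 CPM with No gRNA to 86.2 to 98.4 CPM, while of 13 haematopoietic and endothelial markers CD3E and MS4A1 were at 0 in every library and PTPRC and LYZ had at most 2.3 counts. CD14 and ITGAM reached 24.2 and 34.4 counts, in No gRNA libraries. UGT1A6, a glucuronosyltransferase, had a log2 fold change of 2.68 and shares exons with UGT1A1, which was also separated and called, so the counts of the 2 genes are not independent.

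**Figure D3:**
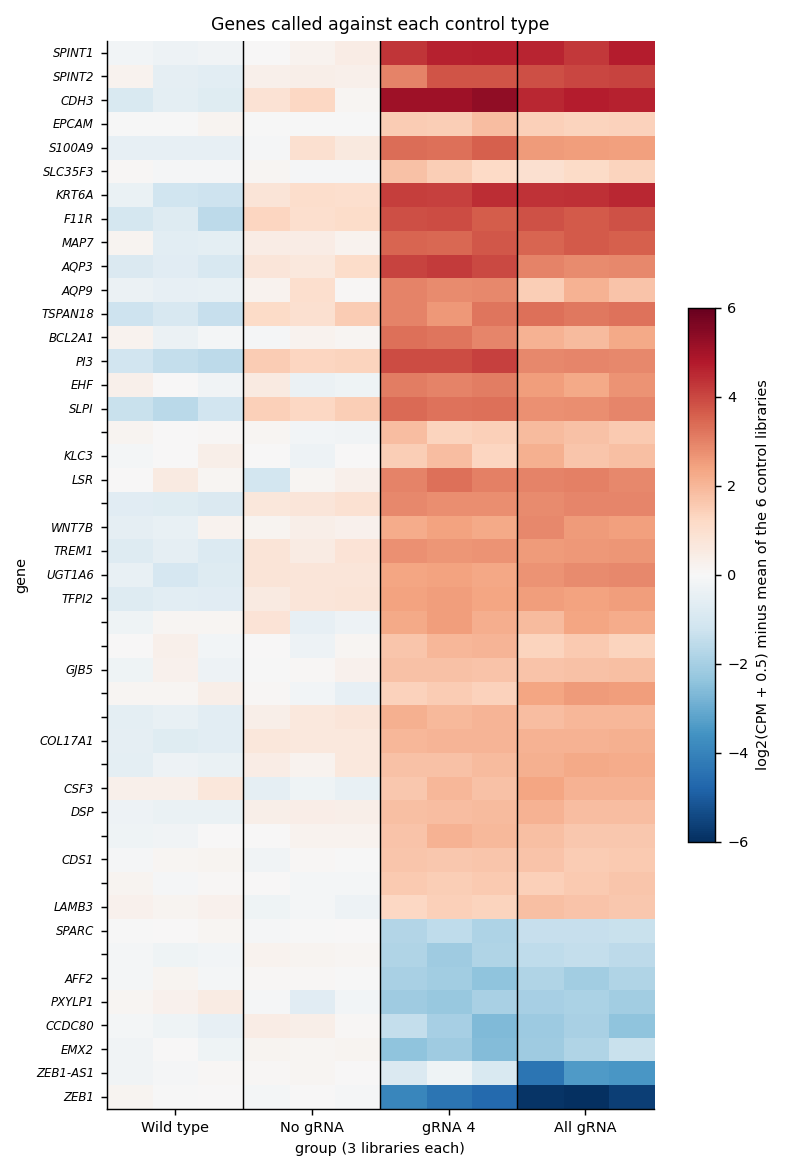
Of the 47 genes separated and called against both controls pooled and against each control alone, the 45 that are reported here, with names for those described in the text, ordered by log2 fold change; colour gives log2(CPM + 0.5) minus the mean of the 6 control libraries, in 12 columns of 3 libraries per group. The genes that rose are red and those that fell blue in all 6 targeted columns, ZEB1-AS1 faintly so with gRNA 4, and wild type and No gRNA columns differ in shade for PI3, SLPI, TSPAN18 and F11R.

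The 8 genes of the 47 that fell were ZEB1, ZEB1-AS1, EMX2, AFF2, CCDC80, PXYLP1, SPARC and 1 gene without a symbol. SPARC, a collagen-binding matrix protein made by mesenchymal cells, stood at 233, 238 and 251 CPM in wild type and 221, 228 and 239 CPM with No gRNA. It stood at 69.5, 81.2 and 65.3 CPM with gRNA 4 and 89.9, 89.2 and 92.1 CPM with All gRNA, a log2 fold change of -1.54 ± 0.05 (adjusted p = 4.23e-05). CCDC80, a matrix-binding secreted protein, stood at 19.7, 17.6 and 15.04 CPM in wild type, was higher with No gRNA at 29.8, 27.2 and 22.7 CPM, and lay between 2.94 and 7.75 CPM in targeted cells. EMX2, a homeobox transcription factor, lay between 5.15 and 7.05 CPM in controls and 0.600 and 2.15 CPM in targeted cells, a log2 fold change of -2.50 ± 0.18 (adjusted p = 3.80e-04). AFF2, a nuclear protein of the AF4 family, lay between 22.6 and 27.6 CPM in controls and 4.28 and 6.81 CPM in targeted cells. For AFF2, SPARC, ZEB1 and ZEB1-AS1 the No gRNA against wild type difference was under 0.2 on the log2 scale in size.

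Of 43 mesenchymal and matrix genes tested, 16 were separated below and 3 above, against 4.45% and 5.18% of all genes tested. The median log2 fold change was -0.29. Of the 16, 3 were called lower, SPARC, CCDC80 and S100A4. The other 13 moved by less or had few counts: CDH2 (N-cadherin) lay between 90.9 and 102 CPM in controls and 59.3 and 70.3 CPM in targeted cells, a log2 fold change of -0.53, and AXL (a receptor tyrosine kinase) had -0.71. Neither passed the test against both controls. VIM and FN1 (fibronectin) were not separated and not called. Over the fits that left out 1 library, the log2 fold change was 0.13 to 0.18 for VIM and -0.37 to -0.32 for FN1. S100A4, a calcium-binding protein of motile cells, stood at 3.45 to 3.69 CPM in wild type, 5.70 to 6.22 CPM with No gRNA, 0.882 to 1.15 CPM with gRNA 4 and 1.97 to 2.06 CPM with All gRNA. It was called against No gRNA, at a log2 fold change of -2.03, and not against wild type, at -1.32. Members separated in the other direction were DCN (decorin), PDGFRA and CD44. DCN stood at 20.3, 8.33 and 2.01 CPM in the 3 wild type libraries, 37.3 to 49.5 CPM with No gRNA and 68.5 to 134 CPM in targeted cells, and was called higher.

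The separated genes called against wild type but not against No gRNA were 59 that rose and 22 that fell. That choice favours genes whose No gRNA level lies between wild type and targeted cells, so where No gRNA lay is given as a description of the members. The No gRNA against wild type difference passed the test for 22 and 6 of them. PTX3, a soluble pattern recognition protein, stood at 206, 207 and 204 CPM in wild type, 18.3, 18.8 and 18.9 CPM with No gRNA and 10.7 to 13.8 CPM in targeted cells. The targeted libraries lay below both controls, but 84.8% of the change from wild type on the log2 scale was present with No gRNA. The log2 fold change was -0.62 against No gRNA and -4.08 against wild type. CLDN1, a claudin of tight junctions, stood at 189, 192 and 195 CPM in wild type, 91.5, 86.9 and 92.8 CPM with No gRNA and 39.3 to 52.3 CPM in targeted cells, a log2 fold change of -1.55 ± 0.05 (adjusted p = 2.15e-05). LCN2, lipocalin 2, which withholds iron from bacteria, stood at 0.492 to 0.598 CPM, 12.04 to 13.0 CPM and 22.7 to 30.4 CPM in the same groups. On the log2 scale, 81.6% of its rise was present with No gRNA, a share that is smaller in CPM. SAA1, an acute phase protein, stood at 93.7 to 96.1 CPM, 268 to 284 CPM and 352 to 465 CPM, and shares sequence with SAA2. E2F1, which drives entry into S phase, stood at 27.96 to 29.0 CPM, 12.9 to 15.2 CPM and 7.03 to 8.55 CPM.

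Of the separated genes, 5 that rose and 1 that fell were called against No gRNA and not against wild type, a choice that favours genes whose No gRNA level lies further from the targeted cells. TSPAN13, a tetraspanin, stood at 17.6, 15.6 and 17.6 CPM in wild type, 8.22, 8.88 and 7.60 CPM with No gRNA and 34.7 to 39.9 CPM in targeted cells. It was called against No gRNA, at 2.19, and not against wild type, at 1.15. ANKRD22 stood at 3.93 to 5.72 CPM in wild type, 0.908 to 1.54 CPM with No gRNA, 13.3 to 17.9 CPM with gRNA 4 and 7.09 to 8.39 CPM with All gRNA. CYTH4, AKR1C1 and MRGPRX3 were the other genes that rose and were called against No gRNA only. CSF3, the granulocyte colony stimulating factor, passed against both, at 54.0 to 70.5 CPM in wild type, 30.1 to 36.7 CPM with No gRNA and 136 to 235 CPM in targeted cells.

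The genes chosen for the largest dependence on the control were not separated, which their choice by opposite signs against the 2 controls all but fixed. EGR1, an immediate early transcription factor, stood at 40.5 to 43.3 CPM in wild type, 7.21 to 9.28 CPM with No gRNA and 37.3 to 45.8 CPM in targeted cells. It was called higher against No gRNA, at 2.31, while its log2 fold change against wild type was -0.05. CCL20, a chemokine, and HBEGF, an EGF receptor ligand, had the same order, with 2.22 and 1.64 against No gRNA and -0.42 and -0.89 against wild type. ENPP2 (autotaxin) was the reverse, at 15.04 to 15.4 CPM in wild type, 60.9 to 68.8 CPM with No gRNA and 18.4 to 21.3 CPM in targeted cells. RSAD2, an interferon-induced antiviral protein, was called in both comparisons with opposite signs, at -1.96 against No gRNA and 4.26 against wild type. For all 5 genes the No gRNA against wild type difference, which is the difference of the 2 comparisons, passed the test. SCN1A, a sodium channel gene, stood at 15.2 to 18.7 CPM in wild type and at or below 0.380 CPM in every other library but All gRNA library 2, which held 18.9 CPM.

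ZNF10, a zinc finger gene also called KOX1, stood at 1.23, 1.41 and 2.16 CPM in wild type and 343, 356 and 331 CPM with No gRNA. It stood at 228, 243 and 243 CPM with gRNA 4 and 295, 289 and 271 CPM with All gRNA. It is the gene from which the repressor domain of dCas9-KRAB fusions is commonly taken, and which gene gave the domain of this vector is not given in the sources used here. The libraries of transduced cells were all high and the wild type libraries all low, and the targeted libraries lay below No gRNA. ZNF10 was called against both controls pooled, at 3.49, but not separated.

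Of 34 interferon-stimulated genes tested, none was called against both controls or against No gRNA, and 8 were called higher against wild type. Over all genes tested, 1.89% were called higher against wild type. The list median was 0.48 against both controls, -0.17 against No gRNA and 1.01 against wild type. The 8 genes were IFIT1, IFIT2, IFIT3, ISG15, OASL, IFITM1, IFITM2 and PSMB8, and all 8 were also called higher in No gRNA than in wild type cells. IFIT1, for example, lay at 0.366 to 0.535 CPM in wild type, 12.7 to 13.5 CPM with No gRNA and 5.22 to 7.60 CPM in targeted cells. Only IFIH1 was separated, at 19.1 to 19.7 CPM with No gRNA and 21.8 to 23.8 CPM in targeted cells. Of 22 cytokines and chemokines, 3 were called higher and 1 lower against both controls, 3 higher against No gRNA, and 4 higher and 6 lower against wild type, with medians of -0.14, 0.40 and -0.54. In the same order, the shares over all genes tested were 0.799%, 0.218%, 0.337%, 1.89% and 0.911%. CCL2, a monocyte chemokine, was separated and called lower, at 1.96 to 2.21 CPM in wild type, 0.437 to 0.909 CPM with No gRNA and at most 0.112 CPM in targeted cells. IL36G, an epithelial interleukin 1 relative, was separated above at 0.404 to 0.843 CPM in targeted cells and at most 0.0954 CPM in controls. The part that the difference between the control types has in the pooled values of both lists was not tested.

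**Figure D4:**
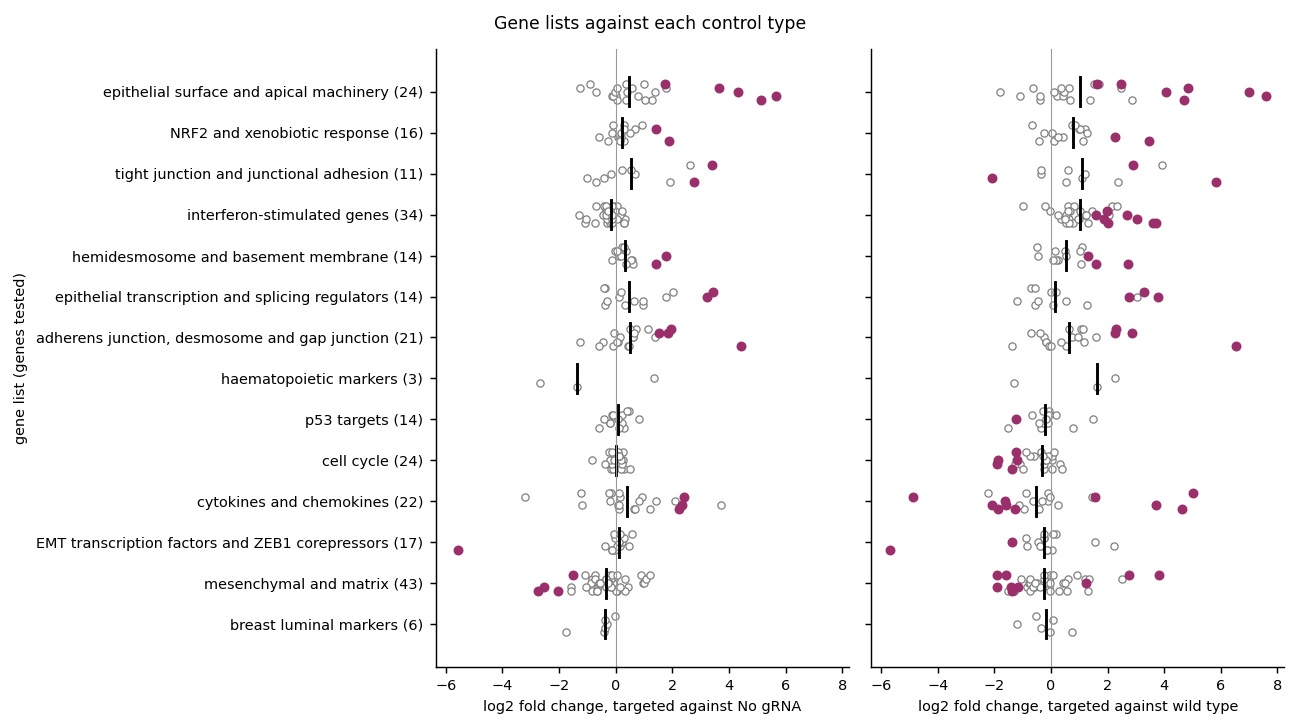
Log2 fold change of each tested member of 14 gene lists against No gRNA (left) and wild type (right); filled points passed the test in that comparison, open points did not, and black bars are list medians. The interferon list has a median of -0.17 on the left and 1.01 on the right, while the junction and epithelial surface lists have medians above 0 on both sides.

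The other lists held few members called against both controls. Over all genes tested, 0.799% were called higher and 0.218% lower, 5.18% were separated above and 4.45% below. Against wild type 0.911% were called lower. Of 16 NRF2 and xenobiotic response genes, AKR1C1 and UGT1A6 were called higher and GCLM and AKR1C2 were also separated above, with a list median of 0.58. The call of AKR1C1 was lost in 3 of the 12 fits, those without wild type 2 and without No gRNA 2 or 3. HMOX1, heme oxygenase 1, was called against wild type alone at 2.27, with 0.08 against No gRNA. Of 24 cell cycle genes, E2F1 was called lower and MCM3, MCM6 and TYMS were also separated below. The call of E2F1 was lost in 7 of the 12 fits that left out 1 library, those without wild type 1 or 2, No gRNA 3, gRNA 4 library 1 or 2 and All gRNA 1 or 3, with adjusted p-values of 0.0254 to 0.0767 over the 12 (limma TREAT). Against wild type 5 were called lower and against No gRNA none, and the list median was -0.12. Of 14 p53 target genes none was separated or called against both controls, and the median was -0.07. Of 6 luminal genes none was called against both controls, and the median was -0.32. Of 3 haematopoietic and endothelial markers tested, PECAM1 was separated above, at 0.840 to 3.62 CPM in controls and 4.16 to 7.67 CPM in targeted cells, and was not called, while the endothelial markers CDH5 and VWF had at most 2.2 counts.

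The separated genes covered a wide range of sizes. Of 784 genes above the controls 249 had a log2 fold change under 0.5, 277 lay from 0.5 to 1 and 258 were over 1, and the median was 0.70. Of 674 below, 349 were under 0.5 in size, 216 lay from 0.5 to 1 and 109 were over 1, and the median size was 0.48. The genes over 1 included 150 above and 78 below that were not called. At the edge of the definition, ZEB1-AS1, S100A14, BHLHA15 and TNFRSF10D were separated by ratios of 1.02 to 1.03 between the nearest targeted and control libraries. The call of S100A14 was lost in 11 of the 12 fits that left out 1 library. MEFV and DTX4 were called and missed separation by ratios of 1.02. In all, 15 genes were called against both controls without being separated, among them C1R and C1S (complement proteases), which lay higher with No gRNA than in targeted cells.

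The 3 wild type SUM159 libraries of the later run were not used to choose genes and served as a further control. The targeted libraries set against them had been used to choose the genes, so the shares of chosen genes are partly raised by that choice. Sequencing run and culture cannot be told apart in the later wild type libraries. All 39 genes that rose and all 8 that fell among the 47 also lay beyond every one of these libraries, as did 104 of 108 and 25 of 31 of the separated and called genes (96.3% and 80.6%). Over all genes tested, 23.9% and 23.4% had all targeted libraries above or below these 3 libraries. Of all separated genes, 524 of 784 above the controls (66.8%) and 391 of 674 below (58%) lay beyond the later wild type. Another 105 and 80 of them lay wholly on the opposite side of it. Among the separated and called genes, BHLHA15, HOXB9, S100P and TNFRSF10D were the exceptions that rose. CCL2, CPA4, IL21R, OLFML2A, SEMA3C and 1 gene without a symbol were the exceptions that fell. OLFML2A averaged 77.4 CPM in wild type of the first run, 8.20 CPM in wild type of the later run and 28.8 to 33.2 CPM in targeted cells. Wild type levels moved between runs for members that held their position as well: COL17A1 averaged 225 and 34.3 CPM, KRT6A 13.1 and 0.760 CPM and PTX3 207 and 60.2 CPM. ZEB1 averaged 78.1 and 76.7 CPM.

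MDA-MB-231, a second mesenchymal triple negative line, was treated the same way with 6 targeted and 6 control libraries. Its 2 guide groups are used together here, because their labels disagree on which guides each received. Of the 108 separated and called genes that rose in SUM159, 84 could be tested in MDA-MB-231, and 38 were separated above its controls (45.2%, against 5.79% of all its genes) and 32 called higher (1.32% of all). Of the 31 that fell, 24 could be tested, 9 were separated below (37.5%, against 2.98%) and 8 were called lower (0.305%). Of the 47 genes, 19 of the 33 tested that rose and 3 of the 6 that fell were separated the same way. EPCAM, F11R, CDH3, MAP7 and SPINT1 were called higher in both lines. EPCAM lay at 11.1 to 14.5 CPM in the MDA-MB-231 controls and 285 to 397 CPM in the targeted libraries, while CDH3 lay at 0.529 to 4.09 CPM and 53.9 to 64.6 CPM. SPINT2, at or below 0.480 CPM in SUM159 controls, already lay at 327 to 505 CPM in MDA-MB-231 controls and at 696 to 813 CPM in its targeted cells, a log2 fold change of 0.90 that was not called. AQP3 was not separated, with a log2 fold change of -0.35.

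**Figure D5:**
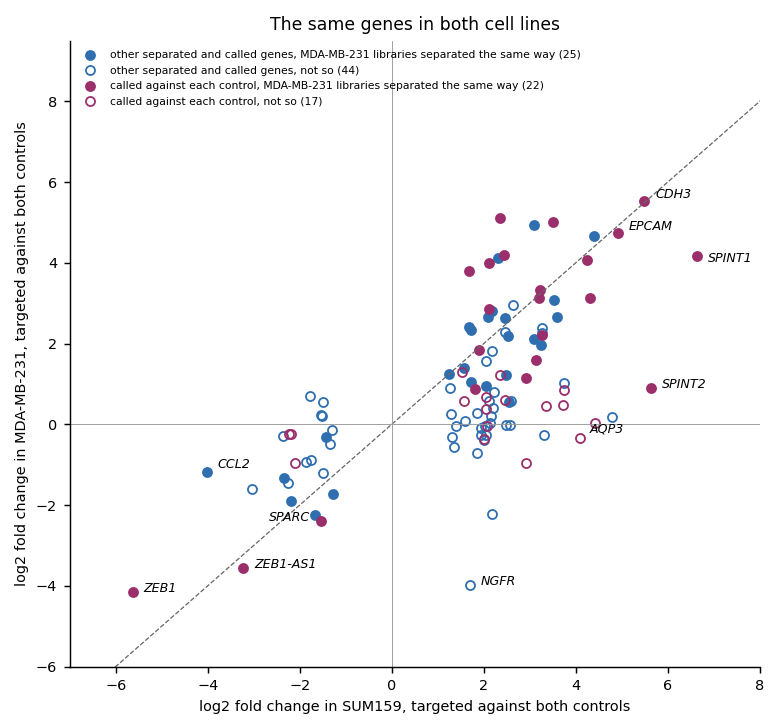
Log2 fold change of targeted against both controls in SUM159 (horizontal) and MDA-MB-231 (vertical) for the separated and called SUM159 genes that could be tested in MDA-MB-231; filled points were separated the same way there. CDH3 and EPCAM lie near the dashed line of equal change, ZEB1 lies above it at -5.63 in SUM159 and -4.15 in MDA-MB-231, and SPINT2, AQP3 and NGFR lie far from it.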

How the data were processed

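RNA from 27 libraries was sequenced by the authors as 50 bp single-end reads. The authors deposited estimated counts per gene, made with Salmon and tximport in its length-scaled mode and not normalized between libraries. The submitters' processing notes name GRCh38. The Salmon version, annotation and strandedness are not given in the sources used here.

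The 12 SUM159 libraries, with groups from the labels, were fitted with voom and limma 3.58.1 (edgeR 4.0.16 for TMM and filtering at a minimum count of 10, R 4.3.3) on 4 group means. TREAT tested a log2 fold change of 1 at an adjusted p of 0.05 (Benjamini-Hochberg). SEs are from that fit. Symbols came from GENCODE 44, and promoters from RefSeq GRCh38.p14. Intervals and floors of 3 counts cover counting error only. The steps were tested on simulated data in which both control types had the same means, as did both guide groups. That test therefore does not cover differences between the controls.

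Named genes were ZEB1, ZEB1-AS1, the 15 highest and 15 lowest by the smaller of the 2 log2 fold changes, list members, the 5 largest control-dependent genes per direction and those at the edge of separation; others, including PI3, SLPI, TFPI2, WNT7B, AQP3, TREM1, LCN2, SAA1, PTX3 and TSPAN13, and the set of 47 genes, were chosen after values were seen. The members and gene lists were chosen with earlier results of these data known. A few genes are not reported here. Alternatives were other tests, scalings, filters, sample sets and each library left out.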

Additional observations from a re-analysis of the deposited data

Results flagged for a closer look

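The change on targeting ZEB1 was compared between SUM159 and MDA-MB-231 in one limma fit of 24 libraries, with TREAT at a log2 difference of 1; this test was chosen after the data were seen. Over all genes 198 of 17182 differed (1.15%), against 45 of the 138 separated and called SUM159 genes that could be tested and 21 of the 47 called against each control. Genes chosen for a large change in SUM159 can be further from MDA-MB-231 by that choice alone, and cell line and sequencing run cannot be told apart. Those that follow differed, each given as the log2 fold change in MDA-MB-231 minus that in SUM159.

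Among adhesion, protease inhibitor and transcription factor genes, the difference was -2.46 for SPINT1, -4.73 for SPINT2 and -2.89 for EHF. SPINT1 was nonetheless called higher in both lines. CDS1 rose more in MDA-MB-231, by 2.11. COL17A1 differed by -1.67 and WNT7B by -1.77. Secreted and barrier genes differed by -3.25 for PI3, -1.86 for TFPI2, -4.44 for AQP3 and -2.36 for CSF3, and BCL2A1 by -2.89, SLC35F3 by -4.38 and a gene without a symbol by -3.86. S100A9 (-4.71), AQP9 (-4.17), TSPAN18 (-4.03), TREM1 (-3.23), UGT1A6 (-2.72) and MUC2 (-6.91) had too few counts to be tested within MDA-MB-231, so these differences compare a change with a gene near 0.

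Among genes that fell in SUM159, the difference was 1.95 for PXYLP1, 2.00 for CCDC80, 2.86 for CCL2, 1.78 for CLDN1 and 2.48 for GPRC5B. In 4 genes all 6 targeted MDA-MB-231 libraries lay on the other side of its controls than in SUM159: ADGRG1 (-2.20), NGFR (-5.67), SAA1 (-1.92) and EDN1 (2.05), the first 3 of which rose in SUM159. No group had more than 3 libraries, so single libraries were not screened for standing apart.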

How the results depend on the processing

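The counts depend mostly on whether a change beyond 2-fold was asked for. With limma's moderated test against no change, 6240 genes were called against both controls, 2096 against No gRNA, 8137 against wild type and 6498 between the controls, 1453 were separated and called, 1067 were so against each control, and MDA-MB-231 gave 7008. With edgeR's quasi-likelihood test the SUM159 counts in the same order were 6227, 2137, 8013, 6429, 1454 and 1084, and with TREAT at a fold of 1.2 they were 1742, 557, 4177, 2783, 907 and 334. The share called higher was 78.6% in the design as fixed, 51.1% and 51.2% without a fold threshold and 60.1% at 1.2. With edgeR's glmTreat at the same threshold, No gRNA gave 106, the controls 363 and each control 71. With the later wild type run added, No gRNA gave 20, wild type 238, the controls 74, separation 913 and each control 15, and 88.1% were higher. Separation with All gRNA or gRNA 4 as the only targeted group, hence fewer libraries, gave 2666 and 2432. Other scalings, filters, DESeq2 and sample quality weights kept every count within 1.5 times.

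Leaving out 1 library gave 122 to 143 genes against both controls, 48 to 63 against No gRNA, 292 to 390 against wild type, 147 to 216 between the controls, 1533 to 1892 separated, 115 to 133 separated and called, 34 to 43 against each control and 224 to 240 in MDA-MB-231. Of the 139 genes 106 kept their call in all 12 such fits, and of the 47 genes 28 did. Replicate numbers did not pair the libraries: deviations of same-numbered libraries correlated at -0.083 to 0.058 over 18 pairs, against -0.077 to 0.093 over 36 other pairs. With the replicate number as a block, 148 genes were called against both controls, and 129 of the 139 and 40 of the 47 were shared.

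Log2 fold changes that turned direction with one control alone were, against No gRNA, SNAI2 0.25, ZEB2 0.14, RSAD2 -1.96, ZNF10 -0.40, OLFM1 -0.74, CCL5 -1.21, ORM1 -0.36, SCN1A 1.01, ACKR4 0.21, CXCL3 0.071, CD274 0.28 and IGF2BP3 0.42, and against wild type EGR1 -0.046, CCL20 -0.42, HBEGF -0.89, SERPINA3 0.64, LBH 0.32 and ENPP2 0.42. With the later run added, SNAI2 turned to 0.15 and IGF2BP3 to 0.12. These genes were mostly chosen for depending on the control, and the cause was not tested. Depth limits the low genes: 15 of the 139 genes had no library above 3 counts in at least one group.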
